A study of Homo sapiens with 6 samples.

Results

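Cathepsins are proteases that work mainly in lysosomes, and their messenger RNAs were followed here in human HEK293 cells, an embryonic kidney line. The 10 genes were taken from the deposited expression table by name (CTSA, CTSB, CTSC, CTSD, CTSF, CTSH, CTSK, CTSL, CTSV and CTSZ), out of 58735 genes in all, and the family was selected on the FPKM values of CTSZ, which were lower in one of the lines. The study compared HEK293 cells that stably expressed tensin 2 with a tyrosine replaced by glutamate (Y483E) and HEK293 cells that stably expressed tensin 2 with that tyrosine replaced by phenylalanine (Y483F), with 3 libraries each and no other treatment named. Glutamate is used to resemble a phosphorylated tyrosine, and phenylalanine cannot be phosphorylated. Cells without a construct or with unchanged tensin 2 were not analysed here, so both groups carry a mutant form. The number of clones behind each of the 2 lines is not stated, so the mutation and other differences between the lines cannot be told apart.

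Most cathepsins are made as inactive precursors, carry mannose 6-phosphate tags that route them to the lysosome, and become active when acid and other proteases remove their propeptide. They fall into 3 catalytic classes: cysteine proteases related to papain (CTSB, CTSC, CTSF, CTSH, CTSK, CTSL, CTSV and CTSZ), the aspartic protease CTSD and the serine carboxypeptidase CTSA. Cystatins inhibit the cysteine cathepsins, and the transcription factors TFEB and TFE3 are known to drive many lysosomal genes through E-box sequences.

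Recovered reads summed to between 17204498 and 23284592 per library. Levels are given as FPKM, fragments scaled to gene length and library depth, so that genes can be compared, and the depth limits what can be said of genes with few reads. In the labels the libraries of each line carry the numbers 1, 4 and 5, whose meaning is not given, and they are called replicates 1, 2 and 3 here. On the first principal component of 12833 genes whose mean reached 1 FPKM, which held 40.9% of the variance, Y483F replicate 1 lay at -5.705, beside the Y483E libraries at -13.4 to -4.94 and apart from Y483F replicates 2 and 3 at 17.02 and 12.88. Results are therefore also given by library number. The titles call the replicates biological without naming separate cultures, so p-values measure the spread between these libraries. HEK293 markers summed to 185 to 212 FPKM per library in Y483E and 179 to 183 in Y483F. Of 11 such markers 6 reached a mean of 1 FPKM, led by the intermediate filament gene VIM and each with a positive log2 difference (Y483E minus Y483F), while PAX8 was near 0, and their part in the results was not tested. Macrophages are rich in cathepsins, but 9 macrophage markers summed to only 0.218 to 0.808 FPKM in Y483E and 0.622 to 0.755 in Y483F, with PTPRC at 0 reads in all 6 libraries. TNS2 itself was at 0.753, 1.04 and 1.05 FPKM in the Y483E libraries, below the 1.07, 1.16 and 1.16 of the Y483F libraries. The lines did not overlap for TNS2, against 7.37% of all tested genes lower without overlap (limma -0.13 ± 0.095, adjusted p 0.604). TNS2 had 109 to 197 reads per library, and reads of the construct and of the native gene are not told apart.

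Of the 10 cathepsin genes, 7 reached a mean of 1 FPKM and entered the test, 2 (CTSH and CTSK) were lower than that, and CTSF had 0 reads in every library. In the Y483E line the order of the levels was CTSL (17.6 ± 0.770 FPKM, SD of 3 libraries), CTSB (17.4 ± 1.09), CTSZ (13.4 ± 0.642), CTSD (11.9 ± 0.320), CTSC (5.96 ± 0.297), CTSA (5.87 ± 0.379), CTSV (4.57 ± 0.744), CTSH (0.625 ± 0.106) and CTSK (0.340 ± 0.0713). Among neighbours in this order, the library ranges of CTSL and CTSB and those of CTSC and CTSA overlapped, and the others did not. In the Y483F line CTSZ stood first (21.1 ± 2.16), followed by CTSB (15.9 ± 1.18), CTSL (15.8 ± 1.24), CTSD (10.97 ± 0.199), CTSA (6.96 ± 0.365), CTSC (5.25 ± 0.584), CTSV (4.92 ± 0.825), CTSH (0.616 ± 0.117) and CTSK (0.481 ± 0.278). There the ranges of CTSB and CTSL, of CTSC and CTSV, and of CTSH and CTSK overlapped. So the endopeptidase genes CTSL and CTSB led in Y483E, and the carboxypeptidase gene CTSZ led in Y483F. FPKM depends on the length listed for each gene, which runs from 1887 bases for CTSK to 11421 for CTSC. By reads alone CTSB was the most counted member in all 6 libraries, with 1956 to 3008.

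**Figure D1:**
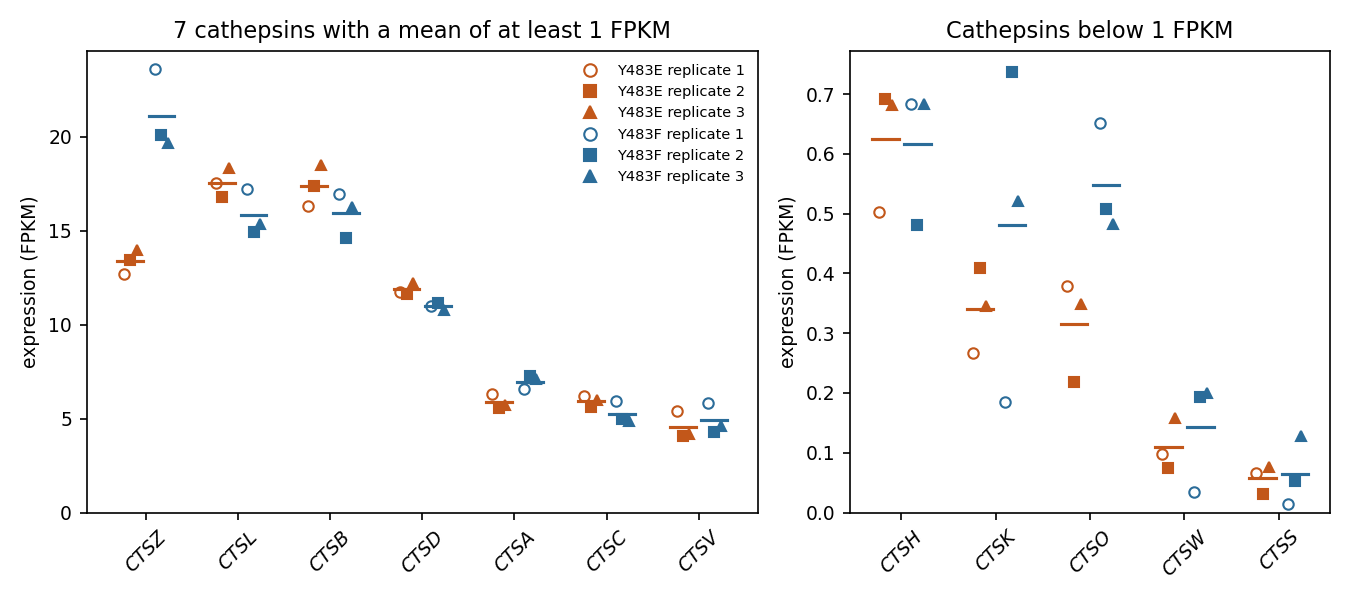
Expression in FPKM (vertical axes, starting at 0) of the cathepsin genes in each library, with orange for Y483E, blue for Y483F, open circles for replicate 1, and short lines for the mean of 3 libraries. CTSZ lies at 12.7 to 13.98 in Y483E and at 19.7 to 23.6 in Y483F, while the open circles of CTSV are the highest in both lines.

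CTSZ encodes cathepsin Z, also called cathepsin X, a cysteine carboxypeptidase whose propeptide carries an integrin-binding RGD sequence. Its level was 12.7, 13.5 and 13.98 FPKM in Y483E replicates 1, 2 and 3, from 463, 640 and 525 reads. In Y483F replicates 1, 2 and 3 it was 23.6, 20.1 and 19.7 FPKM, from 824, 736 and 816 reads. Every Y483E library lay below every Y483F library, and the Y483E mean was 63.4% of the Y483F mean. The log2 difference, Y483E minus Y483F, was -0.62 ± 0.075 (SE) on log2(FPKM + 1), a scale on which the added 1 shrinks differences slightly. The authors' deposited table gives a log2 fold change of -0.66. These values chose the family, so no test is attached to them. In bulk RNA, fewer cells with the transcript and less transcript per cell cannot be told apart. CTSZ was lower in Y483E within each library number, with -0.84 from the replicates 1 and -0.50 from the remaining libraries, numbered 4 and 5. Y483F replicate 1 was the highest library, and without it the difference was -0.54.

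CTSZ held different shares of the family's summed level in the lines. Its shares use the values that chose the family, so they are a description and not a further result. It made up 25.7 ± 1.10% of the summed FPKM of the 10 genes in Y483F and 17.3 ± 0.682% in Y483E. The sum itself was 77.0, 75.7 and 80.0 FPKM in Y483E and 88.0, 78.5 and 79.8 in Y483F, so the sums of the lines overlapped. Without CTSZ the sum was 64.3, 62.2 and 66.0 in Y483E and 64.4, 58.4 and 60.1 in Y483F, and these also overlapped. The share of CTSL was 22.6 ± 0.387% in Y483E and 19.3 ± 0.307% in Y483F, and such shares move with CTSZ by construction.

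CTSA encodes cathepsin A, a serine carboxypeptidase that also protects beta-galactosidase (GLB1) and the sialidase NEU1 in a lysosomal complex. It was at 6.29, 5.57 and 5.75 FPKM in the Y483E line against 6.55, 7.24 and 7.10 in the Y483F line. The lines did not overlap, although Y483E replicate 1 and Y483F replicate 1 were close. The log2 difference was -0.21 ± 0.063 (SE) with a limma adjusted p of 0.309. Among the 6 tested members other than CTSZ, limma called 0 at an adjusted p under 0.05, against 0% of all genes, and CTSA and CTSD had an unadjusted p under 0.05 (0.0109 and 0.0457), against 12.2% of all genes. In edgeR, a count test on the recovered reads, 0 of 8 members other than CTSZ were called, against 0.0438% of all genes, and 0 of 8 with library number as a batch term, against 1.02%. DESeq2 also called 0 of the 6 to which it gave an adjusted p, against 1.29%. CTSA and CTSC had an unadjusted p under 0.05 in edgeR (0.00486 and 0.0374), against 13.4% of all genes. They also did in DESeq2 (0.00774 and 0.0393), against 5.29% of 31210 genes. Those 31210 include genes with few reads that edgeR left out, so the 2 shares are not alike. Among these 6 members the lines did not overlap for CTSA, which was lower, and CTSD, which was higher, against 7.37% of all tested genes lower and 9.72% higher without overlap (17.1% in all). The library ranges of both partners of CTSA overlapped between the lines, with GLB1 at 9.43, 8.81 and 9.87 FPKM in Y483E and 10.2, 9.21 and 9.30 in Y483F, and NEU1 at 13.0, 11.2 and 10.9 against 12.4, 11.8 and 11.4 (named after their values were seen). Limma gave GLB1 and NEU1 differences of -0.026 ± 0.060 and -0.021 ± 0.072, with adjusted p of 0.888 and 0.928.

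In the libraries numbered 4 and 5 alone, edgeR called CTSA lower and CTSB and CTSC higher in Y483E, which is 3 of 8 members other than CTSZ, against 15.0% of all genes called there (7.98% lower and 7.07% higher). CTSA differed by -0.35 ± 0.067 (SE, edgeR adjusted p 0.00297), and limma on the same libraries gave -0.30 (adjusted p 0.0429). CTSA was the 1 of 6 members that limma called there, against 5.71% of all genes, and CTSA, CTSB, CTSC and CTSL had an unadjusted p under 0.05 in it, against 28.2%. Between the replicates 1 CTSA differed by only -0.050. Without Y483F replicate 1 edgeR called CTSA (-0.29, adjusted p 0.0345) and CTSC (0.27, adjusted p 0.0218), against 6.10% of all genes. With array weights, which give less weight to libraries that deviate more, limma called CTSA, CTSC and CTSL (adjusted p 0.0186, 0.0395 and 0.0421), against 14.7% of all genes. A test of whether the line difference itself differed between library number 1 and numbers 4 and 5, with 1 library per line numbered 1, called none of the members other than CTSZ in edgeR, against 2.01% of all genes, or in limma, against 0.0623%. Its smallest adjusted p among them was 0.138 in edgeR, for CTSB, and 0.283 in limma, for CTSA, and CTSB and CTSA had an unadjusted p under 0.05 in edgeR (0.00760 and 0.0309), against 15.1% of all genes, as did CTSA in limma (0.0330), against 15.9%.

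CTSB and CTSL encode the widely expressed lysosomal endopeptidases cathepsin B, which can also remove dipeptides from the carboxyl end of its substrates, and cathepsin L. CTSB was at 16.3, 17.4 and 18.5 FPKM in the Y483E line against 16.9, 14.6 and 16.3 in the Y483F line. CTSL was at 17.6, 16.8 and 18.3 in the Y483E line against 17.2, 14.9 and 15.4 in the Y483F line. For both genes the replicates 1 of the lines were close, Y483E replicate 3 was the highest library and Y483F replicate 2 the lowest. The differences were 0.12 ± 0.068 for CTSB and 0.14 ± 0.064 for CTSL (limma adjusted p 0.513 and 0.425). Within the libraries numbered 4 and 5 edgeR gave CTSB 0.21 ± 0.050 (adjusted p 0.0121) and CTSL 0.21 ± 0.070 (adjusted p 0.0597), and between the replicates 1 the differences were -0.052 and 0.024.

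CTSC encodes cathepsin C, a dipeptidyl peptidase that activates the granule proteases of immune cells. It was at 6.23, 5.64 and 6.02 FPKM in the Y483E line against 5.92, 4.95 and 4.87 in the Y483F line, where replicate 1 lay within the Y483E range and the other 2 below it. The difference was 0.16 ± 0.078 (limma adjusted p 0.457), and 0.24 ± 0.056 in the libraries numbered 4 and 5 (edgeR adjusted p 0.00978). CTSD encodes the aspartic protease cathepsin D, one of the most abundant lysosomal proteases in many cells. It was at 11.8, 11.6 and 12.2 FPKM in the Y483E line against 10.98, 11.2 and 10.8 in the Y483F line. CTSD varied little, with every Y483E library above every Y483F library by a small margin, and with a difference of 0.090 for replicate 1 and 0.11 for the other libraries. Over all 6 libraries it was 0.10 ± 0.043 (limma adjusted p 0.400). In the libraries numbered 4 and 5 edgeR did not call CTSD (adjusted p 0.291).

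**Figure D2:**
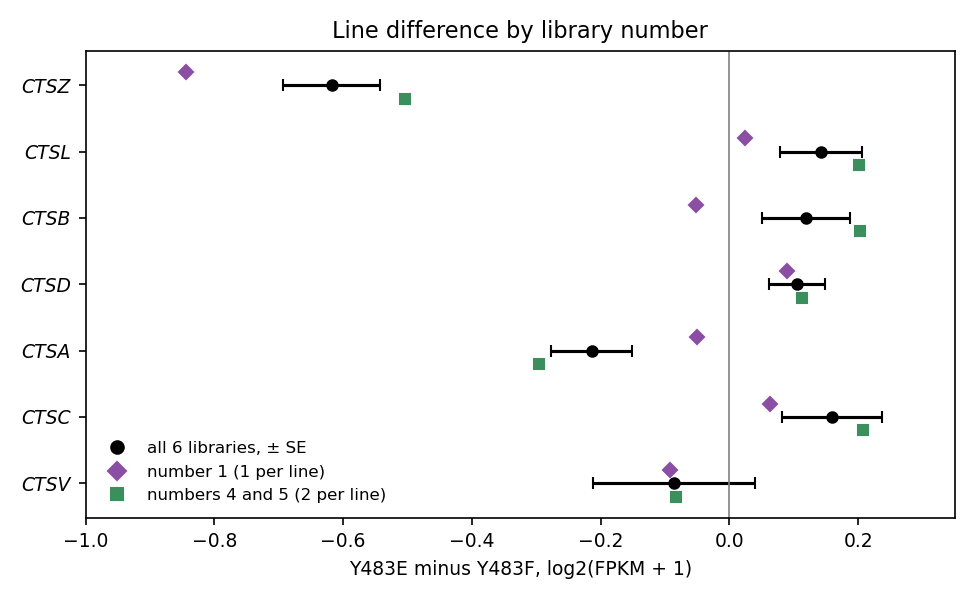
Difference of Y483E from Y483F on log2(FPKM + 1) (horizontal axis) for the 7 tested cathepsins: black circles with SE bars are all 6 libraries, diamonds the replicates 1 and squares the libraries numbered 4 and 5. CTSZ lies left of 0 in each set, at -0.84, -0.62 and -0.50, whereas CTSB lies at -0.052 between the replicates 1 and at 0.20 in the others.

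CTSV, also called cathepsin L2, is a close relative of CTSL on chromosome 9 that is known mainly from thymus, testis and skin. It was at 5.43, 4.09 and 4.19 FPKM in the Y483E line against 5.85, 4.29 and 4.60 in the Y483F line. The replicates 1 of both lines were above the other 4 libraries, a pattern that 15.9% of all tested genes shared. The difference between lines was -0.086 ± 0.13 (limma adjusted p 0.812), and it turned to 0.024 without Y483F replicate 1. Between library numbers, a comparison added after these values were seen, the libraries numbered 1 had a mean of 5.64 FPKM and the others 4.29 ± 0.221 (SD of 4 libraries). On the read counts with the line kept in the model, the difference was 0.38 ± 0.074 (edgeR adjusted p 0.0370), and limma gave 0.33 ± 0.051 (adjusted p 0.119). CTSV was the only one of 9 members tested by edgeR that was called between library numbers, against 1.40% of all genes, and limma called none of 7, against 0% of all genes. CTSL did not show this pattern, with 0.083 ± 0.068 between library numbers (edgeR adjusted p 0.567), though the difference of CTSL from CTSV was not tested.

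CTSL and CTSV also share promoter sequence. The windows below are shown because these closest relatives of the family differ in which libraries were high. They hold the 250 bases before the RefSeq start on GRCh38.p14, 5′ to 3′ on the strand of the gene, with CCAAT in capitals: chr9:87725869-87726118 on the plus strand for CTSL and chr9:97039143-97039392 on the minus strand for CTSV.
CTSL: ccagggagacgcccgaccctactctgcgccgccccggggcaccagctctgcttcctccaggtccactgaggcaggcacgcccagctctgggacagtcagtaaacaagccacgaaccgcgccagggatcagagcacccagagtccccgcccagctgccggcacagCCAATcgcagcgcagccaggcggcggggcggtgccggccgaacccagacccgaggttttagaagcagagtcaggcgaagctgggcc
CTSV: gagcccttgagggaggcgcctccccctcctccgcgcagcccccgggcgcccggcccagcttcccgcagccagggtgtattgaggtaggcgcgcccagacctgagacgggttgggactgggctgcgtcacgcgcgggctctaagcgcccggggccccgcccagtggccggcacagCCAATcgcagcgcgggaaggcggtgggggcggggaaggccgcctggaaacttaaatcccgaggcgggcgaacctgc
The longest run of letters common to both windows is 23 bases long and contains the CCAAT:
CTSL and CTSV: gccggcacagCCAATcgcagcgc
It starts 96 bases before the start of CTSL and 86 bases before that of CTSV, and of 35116 promoter windows of this length only these 2 hold it on either strand. CCAAT, searched on both strands, is in 32.01% of the windows. Rows for 7 CTSL-like pseudogenes held 0 to 9 reads each over all 6 libraries, against 2073 or more per line for CTSL.

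CTSH, an aminopeptidase, had 53, 95 and 74 reads in Y483E and 69, 51 and 82 in Y483F, with 0.625 ± 0.106 and 0.616 ± 0.117 FPKM. In edgeR its difference was 0.018 ± 0.20 (adjusted p 0.979). CTSK, the collagen-degrading cathepsin of osteoclasts, had 9, 18 and 12 reads in Y483E and 6, 25 and 20 in Y483F. The lowest and highest libraries of CTSK were both Y483F libraries, and edgeR gave -0.50 ± 0.45 (adjusted p 0.679). CTSF, a cysteine cathepsin with a long propeptide, had 0 reads in all 6 libraries, which allows up to 3 reads in each and covers counting error only.

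Of the 5 cathepsin genes outside the chosen 10, CTSE, an aspartic protease, and CTSG, a serine protease of neutrophils, had 0 reads in every library. CTSS, which trims the invariant chain in antigen-presenting cells, had 1 to 11 reads per library, and CTSW, a cathepsin of cytotoxic lymphocytes, had 1 to 7. CTSW shares 1 base of its span with the far more abundant FIBP on the opposite strand. CTSO, a little studied cysteine cathepsin, had 20, 15 and 19 reads in Y483E and 33, 27 and 29 in Y483F, at 0.379, 0.218 and 0.349 against 0.652, 0.508 and 0.482 FPKM. The lines did not overlap for CTSO, against 7.37% lower without overlap among genes that reached 1 FPKM, which CTSO did not. For CTSO edgeR gave -0.82 ± 0.30 (adjusted p 0.274), a value that rests on 54 and 89 reads.

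CTSZ and CTSA lie on the long arm of chromosome 20, 13.1 Mb apart. CTSZ (ENSG00000101160) spans chr20:58995185-59007247 on the minus strand and CTSA (ENSG00000064601) chr20:45890144-45898820 on the plus strand, in positions of the authors' table that match GENCODE 29 on GRCh38. Of 349 tested genes of chromosome 20, 278 had a negative and 71 a positive difference, so 79.7% were lower in Y483E, against 47.2% of all tested genes. The median of the chromosome was -0.095, against 0.0070 for all tested genes. CTSA, at -0.21, ranked 61st from the lowest among the 349. Whether the level of the whole chromosome has a part in these values was not tested.

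Within 500 kb of the start of CTSZ, 5 other tested protein-coding genes gave differences from -0.29 to 0.041. Of these 4 were lower and 1 higher, against 79.7% of the tested genes of chromosome 20 lower. Each difference was smaller in size than that of CTSZ, which was chosen for its fall. The tested non-coding gene AL132655.2, which starts 0.178 Mb away and is named after its value was seen, had a larger one (-0.66 ± 0.095). The lines did not overlap for 3 of the 5 protein-coding genes (STX16, NELFCD and ATP5F1E), each lower in Y483E, against 30.4% of the tested genes of chromosome 20 lower without overlap. NELFCD, a subunit of the negative elongation factor, ends 51 bases from CTSZ and was at 19.9, 19.1 and 18.7 FPKM in Y483E and 20.6, 22.6 and 21.3 in Y483F (-0.16 ± 0.050, limma adjusted p 0.326). STX16, a syntaxin of the trans-Golgi network, was at 14.5, 14.9 and 15.4 against 17.03, 19.6 and 18.8 FPKM (-0.29 ± 0.059, adjusted p 0.257). GNAS, the stimulatory G protein alpha subunit, differed by 0.041 ± 0.045, ATP5F1E, a subunit of ATP synthase, by -0.077 ± 0.037, and PRELID3B, a mitochondrial lipid transfer protein, by -0.12 ± 0.070. Over all 6 libraries limma and edgeR without a batch term called none of the 5. DESeq2 called STX16 lower there (-0.31, adjusted p 0.00936), against 1.29% of all genes called. So did edgeR with library number as a batch term (-0.31, adjusted p 0.0198), against 1.02%. In the libraries numbered 4 and 5 limma called STX16 lower (adjusted p 0.0326), against 5.71% of all genes called. In the same libraries edgeR called STX16 and NELFCD lower, against 7.98% of all genes and 21.3% of those of chromosome 20 called lower.

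Around CTSA, 14 other tested protein-coding genes within 500 kb gave differences from -0.59 to 0.076, with 12 lower and 2 higher, and a median of -0.10. The lines did not overlap for 6 of these, each lower in Y483E, against 7.37% of all tested genes and 30.4% of those of chromosome 20 lower without overlap. The lowest was SPATA25, a testis gene at 0.863 ± 0.342 FPKM in Y483E and 1.79 ± 0.381 in Y483F. These values rest on only 16, 16 and 7 reads in Y483E and 19, 23 and 34 in Y483F. UBE2C, a ubiquitin-conjugating enzyme of mitosis, was at 80.0 ± 1.29 and 86.7 ± 2.80 FPKM (-0.11 ± 0.041), and NCOA5, a nuclear receptor coactivator, at 29.03 ± 1.18 and 31.5 ± 0.487 (-0.12 ± 0.044). The other 11 were DBNDD2, PIGT, DNTTIP1, SNX21, ACOT8, ZSWIM3, ZSWIM1, PCIF1, ZNF335, SLC35C2 and ELMO2, at -0.23 to 0.076, and ACOT8 and PCIF1 were the 2 that were higher. Limma and edgeR called none of the 14 over all 6 libraries, and edgeR in the libraries numbered 4 and 5 called SPATA25, ZNF335 and NCOA5 lower, 3 of 14, against 7.98% of all genes and 21.3% of the genes of chromosome 20. Of these 3, limma called only ZNF335 in the same libraries (-0.32, adjusted p 0.0424), against 5.71% of all genes called. Between the replicates 1 ZNF335 went the other way, at 0.086. NEURL2 and PLTP overlap CTSA on the opposite strand with 39 and 78 reads over all libraries, few beside the 2039 and 2266 of CTSA in Y483E and Y483F.

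**Figure D3:**
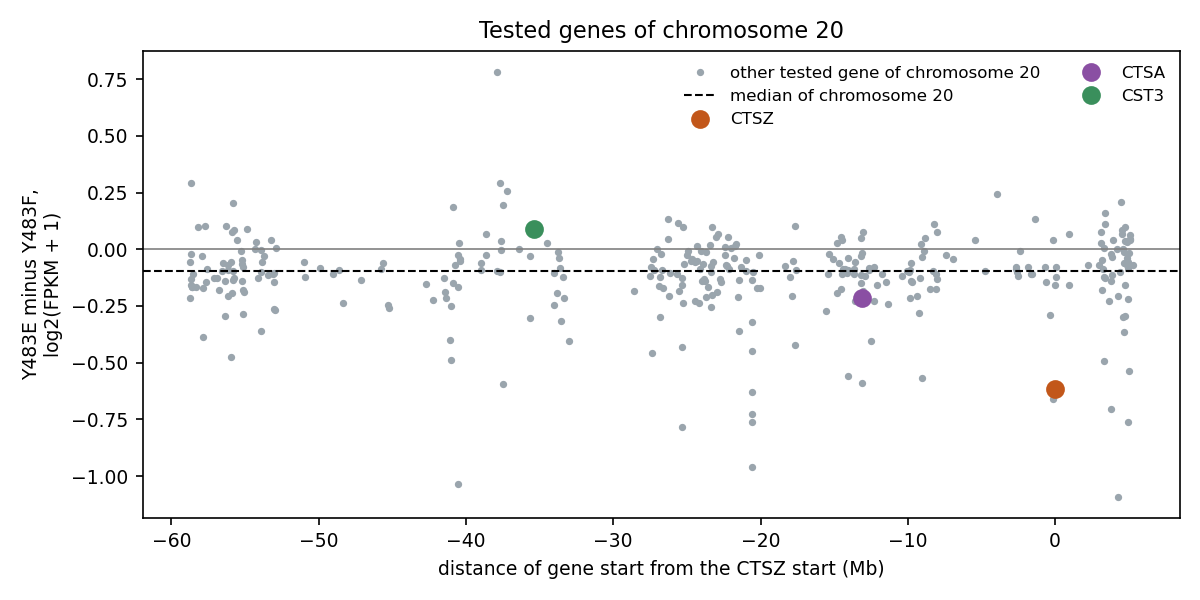
Difference of Y483E from Y483F on log2(FPKM + 1) (vertical axis) for the 349 tested genes of chromosome 20, by the distance of their start from that of CTSZ in Mb (horizontal axis), with the chromosome's median of -0.095 as a dashed line. CTSZ lies at -0.62 and CTSA at -0.21, while CST3, a cystatin gene of the same chromosome, lies at 0.091.

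The promoter windows of CTSZ, CTSA and CTSD are shown because these are the members whose lines did not overlap, 2 lower and 1 higher in Y483E. They hold the 250 bases before the RefSeq start on GRCh38.p14, with the E-box CACGTG in capitals: chr20:59007255-59007504 (minus strand) for CTSZ, chr20:45891085-45891334 (plus strand) for CTSA and chr11:1763928-1764177 (minus strand) for CTSD. The RefSeq start of CTSA lies 1191 bases inside the gene span of the authors' table. Those of CTSD, CTSL and CTSV also lie inside their spans there, by shorter distances.
CTSZ: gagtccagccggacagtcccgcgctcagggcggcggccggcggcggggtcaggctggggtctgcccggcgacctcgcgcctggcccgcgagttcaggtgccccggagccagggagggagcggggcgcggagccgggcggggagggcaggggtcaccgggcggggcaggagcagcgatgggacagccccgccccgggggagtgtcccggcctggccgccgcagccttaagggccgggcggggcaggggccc
CTSA: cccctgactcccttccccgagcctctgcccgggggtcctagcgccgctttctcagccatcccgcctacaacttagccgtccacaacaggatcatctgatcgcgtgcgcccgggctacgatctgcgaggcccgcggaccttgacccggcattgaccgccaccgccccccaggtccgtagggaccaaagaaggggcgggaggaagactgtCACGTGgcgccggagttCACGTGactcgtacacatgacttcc
CTSD: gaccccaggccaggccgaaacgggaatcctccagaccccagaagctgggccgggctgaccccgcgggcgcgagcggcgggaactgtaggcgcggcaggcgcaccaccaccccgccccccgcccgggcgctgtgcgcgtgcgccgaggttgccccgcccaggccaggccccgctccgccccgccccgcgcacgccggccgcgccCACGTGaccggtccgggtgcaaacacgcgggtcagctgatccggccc
Windows were found for 8 of the 10 members, not for CTSB and CTSK. CACGTG, which reads the same on both strands, is in 2 places in CTSA (25 and 42 bases before the start), in 2 in CTSF (51 and 123) and in 1 in CTSD (47), and it is in 6.34% of 35116 windows. The letters CACGTG are not in the CTSZ window, which holds GGGCGG or its reverse complement 5 times, as do those of CTSD and CTSH. GGGCGG, searched on both strands, is in 42.6% of all windows, and none of its matches in the windows overlaps a CACGTG or a CCAAT. CTSA and CTSD, both with CACGTG, differed by -0.21 and 0.10, and limma called neither over all 6 libraries (adjusted p 0.309 and 0.400). Whether CACGTG has a part in the levels was not tested.

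Of the factors known to act on such sequences, TFE3 had 15.5 ± 1.60 FPKM in Y483E against 15.1 ± 1.34 in Y483F (0.029 ± 0.088, limma adjusted p 0.915). TFEB (0.916 ± 0.280 and 0.874 ± 0.178) and MITF (0.849 ± 0.129 and 0.776 ± 0.198) were under 1 FPKM, and TFEC was near 0. TFE3 was the only one of the 4 that limma tested, and its library ranges overlapped. Over all 6 libraries edgeR tested 3 of the 4 and called none, against 0.0438% of all genes.

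Of 12 cystatin genes, which encode inhibitors of the cysteine cathepsins, 2 reached a mean of 1 FPKM. CSTB, the cytosolic cystatin B, is encoded on chromosome 21 and was at 43.8, 43.2 and 42.7 FPKM in Y483E and 47.3, 47.3 and 47.8 in Y483F. The lines did not overlap, against 7.37% of all tested genes lower without overlap, and the difference was -0.13 ± 0.035 (limma adjusted p 0.279). CST3, the secreted cystatin C, was at 33.2, 35.3 and 38.3 FPKM against 34.8, 32.6 and 32.6 (0.091 ± 0.060, adjusted p 0.575). In the libraries numbered 4 and 5 edgeR called CSTB lower (-0.15, adjusted p 0.0120) and CST3 higher (0.17, adjusted p 0.0185), against 7.98% of all genes called lower and 7.07% called higher. Limma on the same libraries called neither (adjusted p 0.0561 and 0.0910), against 5.71% of all genes called.

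Among 6 tested lysosomal proteases other than cathepsins, 2 were higher and 4 lower, with a median difference of -0.027. CPVL, a carboxypeptidase, had 17.4 ± 1.14 FPKM in Y483E against 16.4 ± 2.14 in Y483F, and LGMN, the asparaginyl endopeptidase that processes several cathepsins, at 15.0 ± 0.685 and 15.2 ± 1.95. Limma called 0 of the 6 over all 6 libraries, and edgeR called 0 of 7. In the libraries numbered 4 and 5 limma called 1 of the 6, DPP7, lower, against 5.71% of all genes called. In the same libraries edgeR called 1 of 7 higher (PRCP) and 1 lower (DPP7), against 7.07% and 7.98% of all genes. With CTSZ left out, 4 of the 6 tested cathepsins were on the higher side and 2 on the lower, around a median of 0.11.

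Other lysosomal genes were spread around 0 as well. The 31 tested hydrolases and their activators, 17 higher and 14 lower, had a median of 0.0075, and of these PSAP, the precursor of the saposins, was at 120 ± 2.78 and 114 ± 8.51 FPKM and GLA, the alpha-galactosidase, at 69.0 ± 3.26 and 76.1 ± 2.73. The 16 lysosomal membrane genes, 8 on each side of 0, had a median of -0.0048. CD63, a tetraspanin, was at 58.7 ± 2.27 and 52.6 ± 2.08 FPKM, and LAPTM4B at 72.1 ± 1.57 and 66.7 ± 4.11. The 16 genes of the V-ATPase, the proton pump that acidifies lysosomes, split into 10 higher and 6 lower (median 0.018), and ATP6V1F was at 129 ± 3.63 and 120 ± 5.003 and ATP6V1G1 at 66.1 ± 4.52 and 70.0 ± 4.46. Limma and edgeR called none of the members of these lists over all 6 libraries. With the libraries numbered 4 and 5 alone, edgeR calls were 6 of 32 hydrolase genes (5 higher, 1 lower), 3 of 16 membrane genes (2 higher, 1 lower) and 2 of 16 V-ATPase genes (both higher), against 15.0% of all genes. Limma on the same libraries called no hydrolase or V-ATPase gene. Of the membrane genes it called 1 higher (CD63) and 1 lower (CLCN7), against 5.71% of all genes called.

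Genes that sort cathepsins to the lysosome split into 4 higher and 5 lower, with -0.068 as the median. The cation-dependent mannose 6-phosphate receptor gene M6PR was at 22.3 ± 1.86 and 21.9 ± 1.14 FPKM (0.021 ± 0.069, limma adjusted p 0.922). GGA2, a clathrin adaptor for these receptors, was at 17.01 ± 0.255 and 18.7 ± 1.40 (-0.13 ± 0.059, adjusted p 0.441). With those libraries alone, edgeR called 5 of the 9 lower and none higher, against 7.98% of all genes called lower. They were GNPTG and NAGPA, which act in making the mannose 6-phosphate tag, and the adaptors GGA1, GGA2 and GGA3, with values of -0.65 for NAGPA to -0.18 for GGA1. Limma on the same libraries called only GGA3 of the 9, lower, against 5.71% of all genes called. For the replicates 1 the median of the list was 0.026, against -0.17 in the libraries numbered 4 and 5.

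**Figure D4:**
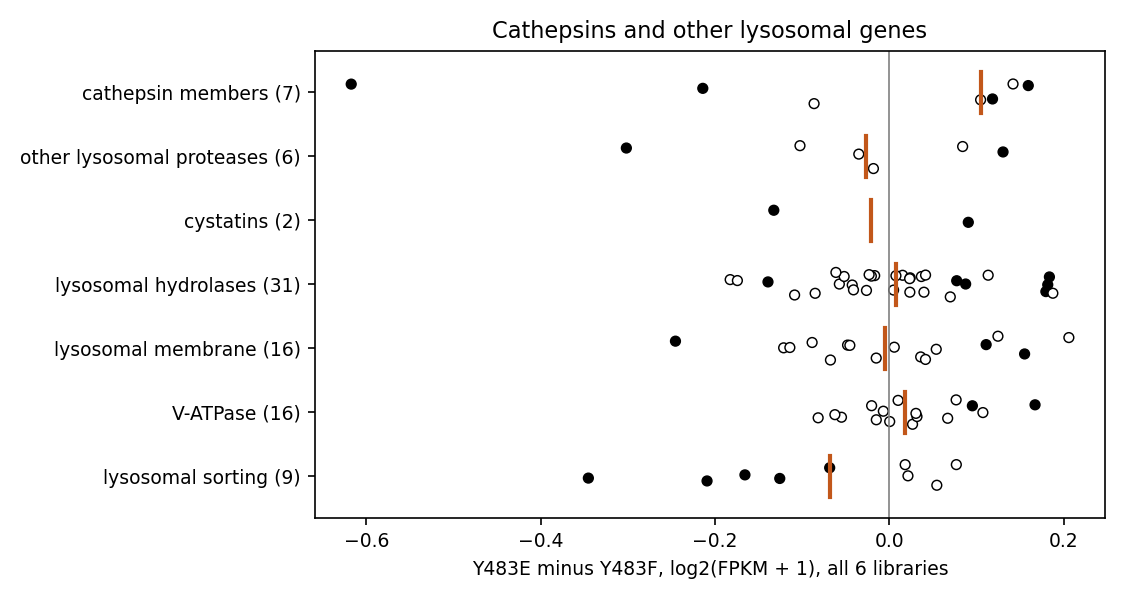
Difference of Y483E from Y483F on log2(FPKM + 1) over all 6 libraries (horizontal axis) for tested genes of each list, with their number in brackets, orange bars for medians and filled points for genes that edgeR called in the libraries numbered 4 and 5. The list medians lie between -0.068 for sorting genes and 0.10 for the cathepsins, and CTSZ at -0.62 is the lowest point.

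By Pearson's r of log2(FPKM + 1) over the 6 libraries, the protein-coding genes most like CTSZ were FKBP1A (0.990), EBF3 (0.989), ZNF334 (0.980), USP25 (0.975) and RBM12 (0.975), out of 10928 compared. FKBP1A, ZNF334 and RBM12 are on chromosome 20, USP25 on chromosome 21 and EBF3 on chromosome 10. ZNF334 was at 2.00, 2.18 and 2.17 FPKM in Y483E and 3.20, 3.10 and 3.09 in Y483F, and FKBP1A, which encodes the FK506-binding protein, at 104, 106 and 107 against 119, 115 and 117. The library ranges of these genes did not overlap between the lines, each lower in Y483E, against 7.37% of all tested genes. Their choice by likeness to CTSZ, whose lines did not overlap, favours this. With 6 libraries the likeness is a description only. Among the cathepsins CTSA had an r of 0.73 with CTSZ and CTSD of -0.83, and CTSL, CTSB and CTSC lay between -0.53 and -0.43.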

How the data were processed

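Poly-A selected RNA of 6 HEK293 libraries was measured by sequencing, and whether strand was kept is not stated. The submitters' processing notes name featureCounts 1.5.0-p3, HISAT2 2.0.5 and StringTie 1.3.3b, besides DESeq and DESeq2. Their build is not given in these sources. Positions of 58690 of 58735 genes equal those of GENCODE 29. One deposited table holds FPKM for all genes. The other, for 1652 genes, holds the authors' raw read counts, the signal made by dividing counts by 1 size factor per library, the authors' log2 fold changes and the authors' p-values. FPKM times gene length and library total gave whole reads, within 0.01, for 100% of values above 0, and they equalled the authors' counts of all 1652 genes.

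The main test was limma 3.58.1 (trend, two-sided) on log2(FPKM + 1) for the 12833 genes whose mean reached 1 FPKM, all of which entered the Benjamini-Hochberg adjustment (threshold 0.05). On the recovered reads edgeR 4.0.16 (quasi-likelihood, TMM) and DESeq2 1.42.0 were run beside it. The scripts were tested on simulated data. Members, gene lists and alternatives were chosen with earlier results of these data known. Named genes are the cathepsins, protein-coding genes within 500 kb of CTSZ or CTSA, the 2 highest of each list with at least 5 tested genes and any called there over all libraries, and the 5 most like CTSZ. Others were named after their values were seen. Same-numbered libraries did not consistently deviate together, so the libraries were not paired. Alternatives were another pseudocount, filter, scaling, weights, a batch term for library number, library subsets and the count tests. Promoters are from RefSeq (GRCh38.p14).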

Additional observations from a re-analysis of the deposited data

How the results depend on the processing

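Limma called 0 genes with a pseudocount of 0.1, no filter, a filter at 5 FPKM, median-of-ratios scaling, the batch term and leaving out any 1 library. It called 1888 with array weights and 733 on the libraries numbered 4 and 5. On the recovered reads edgeR called 7 genes, 14 with the size factors of DESeq2, 2454 on the libraries numbered 4 and 5 and 169 with a batch term, and DESeq2 called 142. Leaving out 1 library moved the edgeR count from 1 (without Y483E replicate 2, Y483E replicate 3 or Y483F replicate 3) over 3 (without Y483F replicate 2) and 174 (without Y483E replicate 1) to 1000 (without Y483F replicate 1). The cause was not tested.

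CTSZ was chosen for its fall in these libraries and its lines did not overlap, so its direction was all but fixed in advance. It was lower in Y483E in all 27 alternatives, from -0.84 (replicates 1) to -0.50 (the libraries numbered 4 and 5). Without 1 library it lay between -0.66 and -0.54 in limma and between -0.71 and -0.57 in edgeR. For the other 6 tested members, 144 of 155 tested values kept direction and side of the threshold, 9 passed the threshold and 2 reversed. The replicates 1 alone allow no test, and there CTSB changed sign, to -0.052, while CTSA and CTSL came to -0.050 and 0.024. CTSV turned positive without Y483F replicate 1, to 0.024 in limma and 0.029 in edgeR, from lows of -0.19 and -0.25 without Y483E replicate 1.

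With the replicate number as a block limma called 0 genes and edgeR 6. Deviations of same-numbered libraries correlated at 0.056, 0.14 and -0.095 for replicates 1, 2 and 3. Not every library correlated best with its own number, so the libraries were not paired. On the second principal component (21.57% of the variance) the replicates 1 lay together, at -9.364 in Y483E and -11.46 in Y483F. The remaining libraries lay there at 0.9262 to 9.029.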

Other observations

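A few lysosomal genes stood out by library. DPP7, a dipeptidyl peptidase of lysosomes, was at 3.77, 3.86 and 3.83 FPKM in the Y483E line against 3.46, 6.29 and 5.45 in the Y483F line, so that Y483F replicate 1 was the lowest of all 6 libraries and the other 2 were the highest. GGA3 was at 10.8, 10.2 and 9.67 FPKM in the Y483E line against 10.6, 12.1 and 12.1 in the Y483F line. CLCN7, the chloride-proton exchanger of the lysosomal membrane, was lower in every Y483E library, against 7.37% of all tested genes lower without overlap. It was at 7.82, 7.87 and 7.60 FPKM in Y483E against 8.74, 9.82 and 9.63 in Y483F (limma -0.25 ± 0.055, adjusted p 0.257). These genes were named after their values were seen, and no explanation was tested.

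CST7, a cystatin gene of chromosome 20 known from immune cells, had 1, 1 and 0 reads in Y483E and 3, 3 and 5 in Y483F, too few for a test.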
